A study of Mus musculus with 8 samples.

Results

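The genes described here are 9 regulators of the primitive streak and early mesoderm, T, Mixl1, Eomes, Lhx1, Gsc, Mesp1, Tbx6, Evx1 and Kdr. They were looked up by symbol in the deposited expression table, where each of them had 1 locus, out of 50060 loci with a gene name. The cells were blastocyst-derived mouse embryonic stem cells of the C57BL/6J strain, kept with leukemia inhibitory factor on embryonic fibroblast feeder cells. All groups had the genotype Mll1fl/fl; Cre-ER TM, that is, a floxed Mll1 gene (Kmt2a) and a Cre recombinase that tamoxifen activates. One group received 100 µM MM401, a compound that inhibits the H3K4 methyltransferase MLL1. The Mll1_deleted group received 5 µM 4-hydroxytamoxifen, which turns the Cre on, and the 2i group received 1 µM of the MEK inhibitor labelled PD03259010 with 3 µM of the GSK3 inhibitor CHIR99021, each for 5 days. The remaining group was untreated, and none of the groups was given vehicle alone. MM401 and 4-hydroxytamoxifen were given in medium with serum and 2i in medium with serum replacement, so 2i and a change of medium cannot be told apart. The sources used here name neither the promoter that drives the Cre nor the medium of the untreated group.

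The primitive streak is the site of the gastrulating embryo where epiblast cells leave the epithelium and become mesoderm and definitive endoderm. NODAL, WNT and BMP signals induce it, and T-box and homeobox transcription factors then carry the fates forward. In embryonic stem cells these genes are known for promoters that are poised, carrying the activating mark H3K4me3, which MLL-family enzymes write, together with the Polycomb mark H3K27me3. Naive embryonic stem cells are known to hold them at low levels.

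Each group was sequenced as 2 libraries, which the submitters call biological duplicates, and the deposited tables give 1 combined value for each group. No spread between libraries can be computed, so there is no SD, n or p-value here. Values are FPKM (fragments scaled to transcript length and to library size), and square brackets hold the authors' lower and upper limit. Estimated counts are the fragments assigned to a locus, and they summed to between 76501619 and 90728747 for a group. A log2 ratio is of FPKM + 1, and a locus is past the 2-fold rule when the ratio is at least 1 in size and the FPKM reached 1 in either group. Kmt2a, which encodes MLL1, was at 14.6, 11.8 and 8.72 FPKM in MM401, Mll1_deleted and 2i cells, against 15.5 FPKM in untreated cells, a value over the whole gene that does not measure deletion of an exon. All 10 embryonic stem cell markers were detected in each group, the lowest at 28.8 FPKM, but in MM401 cells 3 were lower by the 2-fold rule, among them Pou5f1 (−1.57) and Utf1 (−1.68). In Mll1_deleted cells Esrrb and Tdgf1 were at 0.62 and 0.54, and in 2i cells Utf1 and Esrrb at −0.85 and 0.81, short of that rule. Fibroblast markers were also present in all groups. The 21 of 22 with usable values in every group summed to 2683, 1286 and 4416 FPKM in MM401, Mll1_deleted and 2i cells, against 2002 FPKM in untreated cells, with none at 0. These are mixed cultures, so fewer cells of a type and less RNA per cell cannot be told apart.

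Most of these genes were barely transcribed. In each of the 4 groups 3 of the 9 reached 1 FPKM, and 6 did not. The 9 values summed to 7.30, 8.20 and 9.51 FPKM in MM401, Mll1_deleted and 2i cells, against 13.7 FPKM in untreated cells. Eomes and Lhx1 made up the difference. Without them, the other members summed to 3.82, 2.70 and 5.21 FPKM in MM401, Mll1_deleted and 2i cells, against 3.68 FPKM in untreated cells, so the untreated group was no longer the highest. The highest member of every group was Eomes, above 79.4% of named loci in untreated cells. At the low end were Evx1 in MM401 cells (0.0631 FPKM), Evx1 in Mll1_deleted cells (0.145 FPKM), and Mesp1 in 2i cells (0.0238 FPKM) and in untreated cells (0.0671 FPKM).

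**Figure D1:**
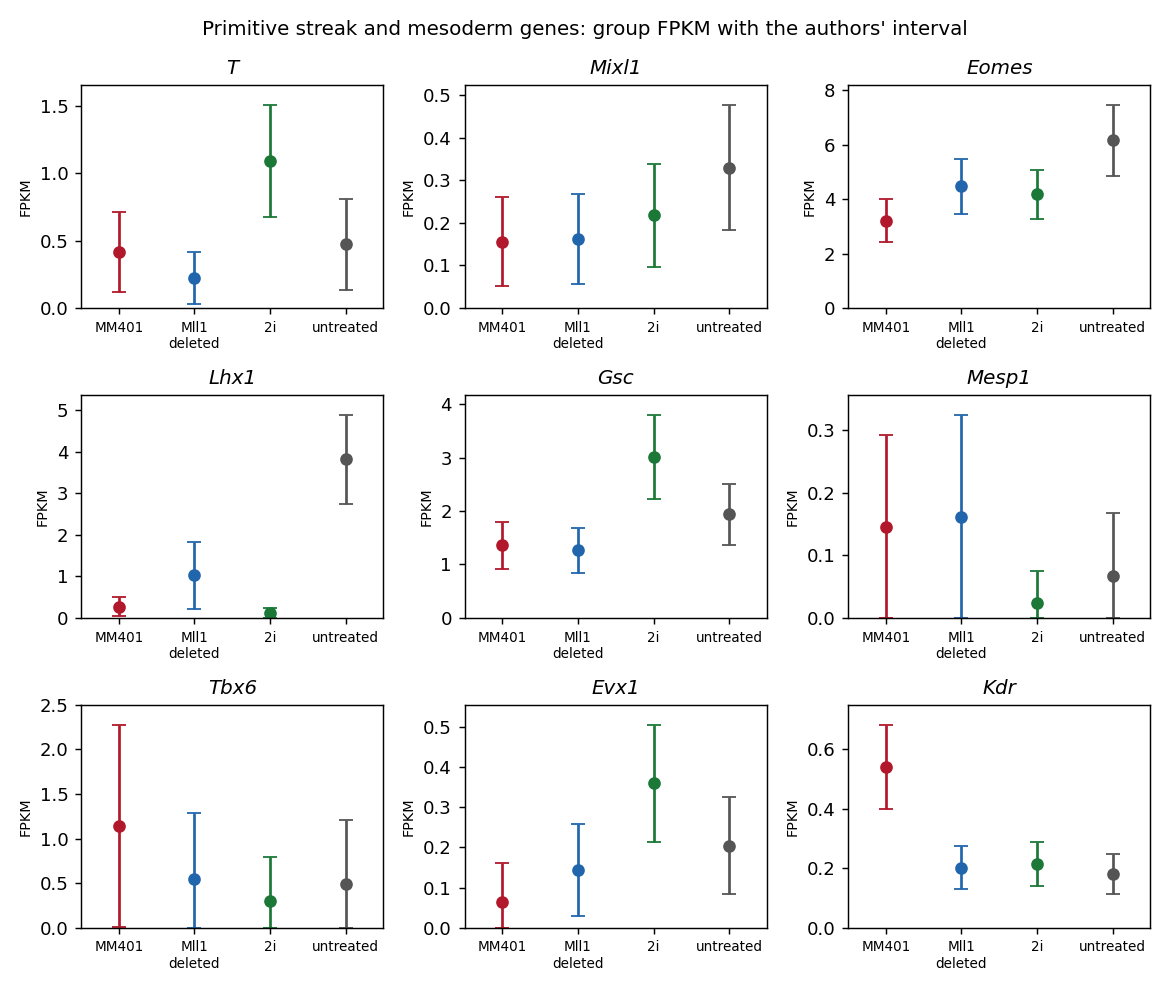
Group FPKM of each of the 9 genes (points) with the authors' lower and upper limit (bars), each panel on its own linear axis from 0, in MM401, Mll1_deleted, 2i and untreated cells. Lhx1 is near 3.82 FPKM in untreated cells only, T, Gsc and Evx1 are highest in 2i cells, and Kdr is highest in MM401 cells.

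The 9 genes lie on 8 chromosomes of the GRCm38 (mm10) build, as annotated by GENCODE. T spans chromosome 17 from 8434423 to 8442496 on the plus strand, with up to 8 exons. Mixl1 spans chromosome 1 from 180693043 to 180697034 on the minus strand, with 2 exons. Eomes spans chromosome 9 from 118478212 to 118486132 on the plus strand, with up to 6 exons. Lhx1 spans chromosome 11 from 84518284 to 84525535 on the minus strand, with up to 5 exons. Gsc spans chromosome 12 from 104471209 to 104473330 on the minus strand, with 3 exons. Mesp1 lies on chromosome 7 from 79792241 to 79793788 on the minus strand, with 2 exons, and Tbx6 on the plus strand of the same chromosome from 126781483 to 126785560, with up to 8. Evx1 spans chromosome 6 from 52313498 to 52318378 on the plus strand, with up to 3 exons, and Kdr chromosome 5 from 75932827 to 75978458 on the minus strand, with up to 30. Values are per locus and do not separate exons or transcripts.

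Promoter sequence is shown for Lhx1, the one gene past the 2-fold rule described next, and for T and Gsc, which were highest in 2i cells. RefSeq windows of GRCm38.p6, 250 bases before to 50 bases after the gene start, were found for 8 of the 9 genes, all but Mixl1. The stretch printed lies upstream of the outermost annotated start, 5′ to 3′ on the gene's strand, at chr17:8434173-8434280 for T (plus strand), chr12:104473331-104473486 for Gsc (minus strand) and chr11:84525536-84525784 for Lhx1 (minus strand). Capitals mark the match to the TCF/LEF motif, through which WNT signals reach their targets.
T: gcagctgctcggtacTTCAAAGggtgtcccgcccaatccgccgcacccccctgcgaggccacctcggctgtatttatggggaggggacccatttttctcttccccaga
Gsc: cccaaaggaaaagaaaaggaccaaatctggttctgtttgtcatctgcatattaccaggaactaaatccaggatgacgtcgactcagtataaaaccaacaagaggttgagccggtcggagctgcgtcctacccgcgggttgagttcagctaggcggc
Lhx1: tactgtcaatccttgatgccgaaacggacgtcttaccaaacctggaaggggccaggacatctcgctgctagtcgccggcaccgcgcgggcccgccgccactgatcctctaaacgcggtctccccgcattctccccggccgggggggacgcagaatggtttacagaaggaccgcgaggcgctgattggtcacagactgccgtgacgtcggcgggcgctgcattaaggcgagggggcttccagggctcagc

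The TCF/LEF motif was searched on both strands as the word CTTTGAA and its variants CTTTGAT with CTTTGTA and also CTTTGTT, and 16.9% of the 32851 promoter windows hold it. T held 1 match, at positions −235 to −229 with the start as 0, and Mesp1 held 2, at −73 to −67 and −31 to −25, within the GENCODE transcript. No match was found for the other 6 windows. Mesp1 also held the T-box word GGTGTGA on the opposite strand at positions 5 to 11, a word in 3.98% of windows. None of the 8 held the FOXH1 word AATNNACA (12.2% of windows), the word TAATCC bound by GSC and OTX factors (7.06%) or the SMAD palindrome GTCTAGAC (0.213%). A match is a run of letters and not a site shown to be bound. CpG dinucleotides, which the CXXC domain of MLL1 is known to bind when unmethylated, numbered 31 in the Lhx1 window, more than in 89.4% of windows. Gsc had 25, Kdr 19, T 17, Evx1 12, Eomes 10, Tbx6 7 and Mesp1 4, against a median of 7.

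Lhx1 was the 1 member past the 2-fold rule, and it was lower in each treated group. It encodes a LIM homeobox factor that the head organiser, the anterior mesendoderm and the anterior visceral endoderm use. Lhx1 was at 0.267 [0.0412 to 0.493] FPKM in MM401 cells, 1.03 [0.222 to 1.84] FPKM in Mll1_deleted cells and 0.108 [0 to 0.233] FPKM in 2i cells, against 3.82 [2.75 to 4.88] FPKM in untreated cells. The untreated interval lay above all 3 others, which overlapped each other. Log2 ratios were −1.93 for MM401, −1.25 for Mll1_deleted and −2.12 for 2i. All 3 ratios share the same untreated value. Of all loci tested by the same rule, 6.08% were lower and 7.04% higher in MM401 cells, 3.66% lower and 3.03% higher in Mll1_deleted cells, and 4.16% lower and 2.92% higher in 2i cells. The same shares are the background for the counts of listed genes given below. In both MM401 and 2i cells Lhx1 entered the rule only through its untreated level.

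The estimated counts showed a larger difference at Lhx1. They were 81.8, 102 and 32.4 in MM401, Mll1_deleted and 2i cells, against 1266 in untreated cells. Untreated cells thus had 15.5, 12.4 and 39.1 times as many fragments at this locus as MM401, Mll1_deleted and 2i cells. The 2 quantities parted most in Mll1_deleted cells, where 100 counts gave 1.01 FPKM, while they gave between 0.301 and 0.334 FPKM in the other groups. Annotated Lhx1 transcripts run from 382 to 3846 spliced bases, and the transcripts behind the fragments in Mll1_deleted cells were not analysed here. On log2 of counts + 10 the ratios were −3.80, −3.51 and −4.91 for MM401, Mll1_deleted and 2i. The adjacent long noncoding RNA locus Lhx1os, the divergent neighbour of Lhx1, had 2.91, 1.70 and 0.531 counts in MM401, Mll1_deleted and 2i cells, against 20.6 counts in untreated cells. The sources used here do not say whether fragments were counted by strand.

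**Figure D2:**
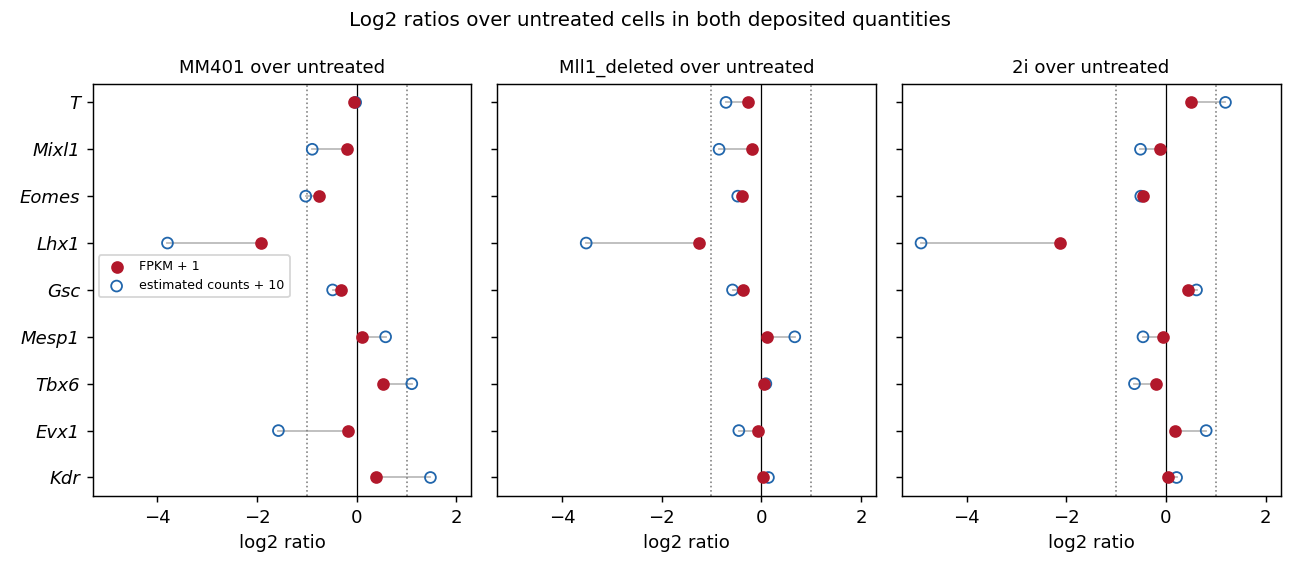
Log2 ratios of the 9 genes over untreated cells for MM401, Mll1_deleted and 2i (panels), from FPKM + 1 (filled points) and from estimated counts + 10 (open points), with dotted lines at a 2-fold change in either direction. Lhx1 lies beyond the lower line in all panels by both quantities, while Eomes and Evx1 pass the lower line and Tbx6 and Kdr the upper line in MM401 cells by counts only, as does T in 2i cells.

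Eomes encodes a T-box factor needed for mesoderm and definitive endoderm formation, and for the trophoblast. It was at 3.22 [2.42 to 4.01] FPKM in MM401 cells, 4.47 [3.48 to 5.47] FPKM in Mll1_deleted cells and 4.19 [3.29 to 5.08] FPKM in 2i cells, against 6.16 [4.87 to 7.46] FPKM in untreated cells. The MM401 interval lay below the untreated one, and the intervals of Mll1_deleted and 2i cells overlapped both. Log2 ratios were −0.76, −0.39 and −0.47 for MM401, Mll1_deleted and 2i, none past the 2-fold rule. In counts + 10 the MM401 ratio was −1.02. The antisense gene Gm33460 overlaps the end of Eomes, and without strand their fragments cannot be told apart. On the trophectoderm list of 12 genes, which holds Eomes, 1 of 10 tested was past the rule in MM401 cells (Esx1, 1.27), 3 of 10 in Mll1_deleted cells (among them Hand1 at 2.07 and Krt7 at 1.30) and 0 of 9 in 2i cells, all of them higher. Ascl2 in MM401 cells (0.999) and Tead4 (0.86) and Gata3 (−0.47) in 2i cells were short of it, and the loci of Ascl2 and Gata3 are joined with a noncoding gene.

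T and Gsc were highest in 2i cells. T, or Brachyury, is the founding T-box factor, which drives mesoderm and notochord formation and is a known target of WNT signalling. Its level was 0.414 [0.116 to 0.712] FPKM in MM401 cells, 0.220 [0.0274 to 0.413] FPKM in Mll1_deleted cells and 1.09 [0.676 to 1.5] FPKM in 2i cells, against 0.472 [0.134 to 0.810] FPKM in untreated cells. The 2i interval lay above that of Mll1_deleted cells and overlapped those of MM401 and untreated cells. T had 142 counts in 2i cells, against 56.4 counts in untreated cells. The log2 ratio of 2i over untreated was 0.50 by FPKM + 1 and 1.20 by counts + 10, so the 2-fold line was crossed only in counts.

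Gsc encodes Goosecoid, a homeobox repressor of the organiser and anterior streak. Gsc was at 1.36 [0.915 to 1.80] FPKM in MM401 cells, 1.27 [0.844 to 1.69] FPKM in Mll1_deleted cells and 3.01 [2.23 to 3.79] FPKM in 2i cells, against 1.94 [1.37 to 2.50] FPKM in untreated cells. The 2i interval was above those of MM401 and Mll1_deleted cells and overlapped the untreated one. Log2 ratios over untreated were −0.32 for MM401, −0.37 for Mll1_deleted and 0.45 for 2i. With 326 counts in 2i cells and 209 in untreated cells, Gsc rested on more fragments than T.

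Evx1 was also highest in 2i cells, at a lower level. It encodes a homeobox factor of the posterior streak. Its values were 0.0631 [0 to 0.161] FPKM in MM401 cells, 0.145 [0.0305 to 0.259] FPKM in Mll1_deleted cells and 0.359 [0.214 to 0.504] FPKM in 2i cells, against 0.204 [0.0832 to 0.326] FPKM in untreated cells. The intervals of MM401 and 2i cells were separate, and all other pairs overlapped. Evx1 had 10.5 counts in MM401 cells, against 50.8 counts in untreated cells. The antisense gene Evx1os, which overlaps its start, had 12.1 counts in MM401 cells, against 1.74 counts in untreated cells. Without knowledge of strand, reads of Evx1 and Evx1os cannot be told apart.

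Kdr was highest in MM401 cells. It encodes VEGF receptor 2, a surface marker of lateral and extraembryonic mesoderm and of endothelium. Kdr was at 0.540 [0.399 to 0.680] FPKM in MM401 cells, 0.202 [0.130 to 0.273] FPKM in Mll1_deleted cells and 0.213 [0.139 to 0.287] FPKM in 2i cells, against 0.181 [0.114 to 0.248] FPKM in untreated cells. The MM401 interval lay above the other 3, which overlapped each other. It rested on 311 counts in MM401 cells, against 105 counts in untreated cells, 2.96 times as many. Because the level stayed under 1 FPKM in both groups, Kdr was outside the 2-fold rule, and its log2 ratio was 0.38 by FPKM + 1 and 1.48 by counts + 10. Among named loci of 0.1 to 5 FPKM on average, 9.77% had an MM401 interval above the untreated one, and 4.49% had one below it.

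Markers of endothelial cells and fibroblasts were set beside Kdr. Of the 16 haemato-endothelial genes, a list that holds Kdr, 2 of 11 tested were past the rule in MM401 cells, both higher. These were Gata2, a blood and endothelial transcription factor gene (1.31), and Flt4, which encodes VEGF receptor 3 (1.14). The list summed to 65.2, 73.8 and 75.0 FPKM in MM401, Mll1_deleted and 2i cells, against 59.3 FPKM in untreated cells. This sum leaned on Pecam1, at 19.7, 37.2 and 39.7 FPKM in those groups, against 22.6 FPKM in untreated cells. Tie1, short of the rule, was at 1.06 [0.787 to 1.34] FPKM in MM401 cells, above 0.487 [0.339 to 0.635] FPKM in untreated cells. Cdh5, the endothelial cadherin gene, was at 0.598 FPKM in MM401 cells, against 0.731 FPKM in untreated cells, and the sialomucin gene Emcn was at or below 0.0710 FPKM in all groups. Pecam1 in Mll1_deleted cells (0.69) and Tek in 2i cells (−0.86) were short of the rule, and Cldn5, a tight junction gene, was lower in 2i cells (−1.11). The fibroblast list had 4 genes higher and 1 lower of 21 in MM401 cells, with Lox at 1.51 and Postn at 1.29, 0 higher and 2 lower in Mll1_deleted cells (Ccl2 at −1.76 and Tagln at −1.29), and 8 higher and 1 lower in 2i cells, where Col1a1 was at 2.32 and Col3a1 at 1.78. Its summed level was highest in 2i cells, in which Col3a1 alone made up 1884 FPKM. The Col3a1 intervals reached 0 in every group and overlapped, and its locus is joined with AC125167.1. The Tagln intervals of Mll1_deleted and untreated cells also overlapped. Of the usable genes, Thbs1, Mmp2, Postn, Lox, Dcn, Acta2, Tagln, Prrx1 and Fbln2 were highest in MM401 cells, as Kdr was. Thbs1 was at 331 FPKM and Mmp2 at 171 FPKM there, against 143 and 77.9 FPKM in untreated cells. The other usable genes were highest in 2i cells, except Ccl2, which was highest in untreated cells. The part of other cells in the Kdr value was not tested.

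Mixl1, Mesp1 and Tbx6 did not differ between any pair of groups beyond the authors' intervals. Mixl1 encodes a homeobox factor of the streak that acts in endoderm formation. It was at 0.156 [0.0510 to 0.260] FPKM in MM401 cells, 0.162 [0.0567 to 0.267] FPKM in Mll1_deleted cells and 0.217 [0.0969 to 0.338] FPKM in 2i cells, against 0.329 [0.183 to 0.476] FPKM in untreated cells. All 3 treated values were below the untreated one, with log2 ratios of −0.20, −0.19 and −0.13 for MM401, Mll1_deleted and 2i. Mesp1 encodes a helix-loop-helix factor of the first cardiac mesoderm. Its 4 values rested on 15.9, 17.6 and 2.59 counts in MM401, Mll1_deleted and 2i cells, against 7.31 counts in untreated cells, and every lower limit was 0.

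Tbx6 encodes the T-box factor of presomitic mesoderm. It was at 1.14 [0.00921 to 2.28] FPKM in MM401 cells, 0.545 [0 to 1.28] FPKM in Mll1_deleted cells and 0.297 [0 to 0.794] FPKM in 2i cells, against 0.493 [0 to 1.21] FPKM in untreated cells. The MM401 value was the highest, but all of the intervals overlapped. The deposited locus of Tbx6 spans chromosome 7 from 126766334 to 126785560 and is shared with its upstream neighbours Gdpd3, Ypel3 and Gm9967, while the gene itself starts at 126781483. Ypel3 was at 91.4 FPKM in MM401 cells, against 73.5 FPKM in untreated cells. The part of Ypel3 reads in the Tbx6 value was not tested.

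Counted over the whole set, 1 of 9 genes was past the 2-fold rule in each comparison with untreated cells, and it was Lhx1 each time. Over all loci in either direction the shares were 13.1% in MM401, 6.68% in Mll1_deleted and 7.08% in 2i cells. Those shares are of loci that reached 1 FPKM, which 4 of the 9 members did in the MM401 comparison, 3 in the Mll1_deleted comparison and 4 in the 2i comparison. Lhx1 was among the 4 in MM401 and 2i cells only through its untreated level, so nothing is read from its share of them. The median log2 ratio of the 9 was −0.18 in MM401, −0.19 in Mll1_deleted and −0.06 in 2i cells, where the pseudocount shrinks the ratios of members under 1 FPKM. Over the members that reached 1 FPKM it was −0.54, −0.39 and −0.01 in the MM401, Mll1_deleted and 2i comparisons, and over all loci that did so −0.04, 0.05 and 0.08. Besides Lhx1, Tbx6 entered only through its MM401 level, and T entered the 2i comparison only through its 2i level. Because the compared values chose these few members, no shift of the set is read from their medians. Ratios below 0 numbered 6 of 9 in MM401, 6 in Mll1_deleted and 5 in 2i cells. By the intervals, MM401 cells had 1 member above and 2 below untreated cells. Mll1_deleted cells and 2i cells each had 0 above and 1 below. Over all named loci above 0, the shares with a separate interval were 5.68% above and 5.28% below in MM401 cells, 2.58% above and 2.38% below in Mll1_deleted cells, and 3.11% above and 2.95% below in 2i cells. Among named loci of 0.1 to 5 FPKM on average, they were 9.77% above and 4.49% below in MM401 cells. In Mll1_deleted cells they were 4.06% and 3.75%, and in 2i cells 2.96% and 4.42%.

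Inhibition and deletion of MLL1 were also set against each other. None of the 9 genes was past the 2-fold rule between MM401 and Mll1_deleted cells, where 10.5% of all loci were. Kdr was the 1 member whose intervals were separate, with 0.540 FPKM in MM401 cells and 0.202 FPKM in Mll1_deleted cells (log2 ratio 0.36). Of all named loci above 0, 4.43% were higher and 4.54% lower in MM401 cells by that measure. Among named loci of 0.1 to 5 FPKM on average, nearer the level of Kdr, 7.67% were higher and 3.24% lower. Over all loci 914 were higher and 837 lower in MM401 cells, and with the ratios centred on their median 1100 were higher and 651 lower. Lhx1 was at 0.267 FPKM in MM401 cells and 1.03 FPKM in Mll1_deleted cells, and its counts were 81.8 in MM401 cells and 102 in Mll1_deleted cells.

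MM401 and Mll1_deleted cells were last set against 2i cells. None of the 9 genes was past the 2-fold rule in either comparison, where 21.4% of loci were for MM401 and 11.1% for Mll1_deleted. By the intervals, MM401 cells had Kdr above and Gsc and Evx1 below 2i cells, and Mll1_deleted cells had 0 members above and T and Gsc below. Over all named loci above 0, 7.46% lay above and 8.62% below for MM401 over 2i, and 4.85% above and 4.54% below for Mll1_deleted over 2i. Among named loci of 0.1 to 5 FPKM on average, the shares were 12.6% above and 5.5% below for MM401. They were 7.32% above and 4.91% below for Mll1_deleted. Over the 6 pairs of groups, 6 members were separate in at least 1 pair and 3 in none. The share of all loci separate in at least 1 pair was not computed, so nothing is read from this count.

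The list of streak-inducing signals also held their receptors, effectors and inhibitors, so its counts are not of inducers alone. It ran over a wide range of levels. Below 1 FPKM were 6 of 34 genes in MM401 cells, 7 in Mll1_deleted cells and 5 in 2i cells, against 3 in untreated cells. Wnt3a, for example, was at 0.477, 0.317 and 0.273 FPKM in MM401, Mll1_deleted and 2i cells, against 0.121 FPKM in untreated cells. Of the 35 listed genes 32 were tested in each comparison. In MM401 cells 0 were higher and 7 lower, in Mll1_deleted cells 0 were higher and 5 lower, and in 2i cells 2 were higher and 5 lower. The NODAL antagonist genes Lefty1, Lefty2 and Cer1 were among those lower in MM401 and in Mll1_deleted cells. The 2 higher in 2i cells, Axin2 and Dkk1, encode WNT inhibitors. Median log2 ratios of those tested were −0.15, 0.05 and 0.02. Genes just short of the rule in MM401 cells included Wnt3, higher (0.96), and Tcf7l1 and Fzd7, lower (−0.99 and −0.93), all with separate intervals. Wnt3 was at 1.44 [1.07 to 1.81] FPKM in MM401 cells, against 0.259 [0.148 to 0.370] FPKM in untreated cells. The MM401 interval of Wnt3a also lay above the untreated one. Nodal, the main streak-inducing ligand gene, was at 30.1 [24.5 to 35.7] FPKM in MM401 cells, 50.1 [40.9 to 59.4] FPKM in Mll1_deleted cells and 51.1 [41.7 to 60.6] FPKM in 2i cells, against 42.0 [34.2 to 49.8] FPKM in untreated cells. It was lowest in MM401 cells, although the Nodal intervals of MM401 and untreated cells overlapped.

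**Figure D3:**
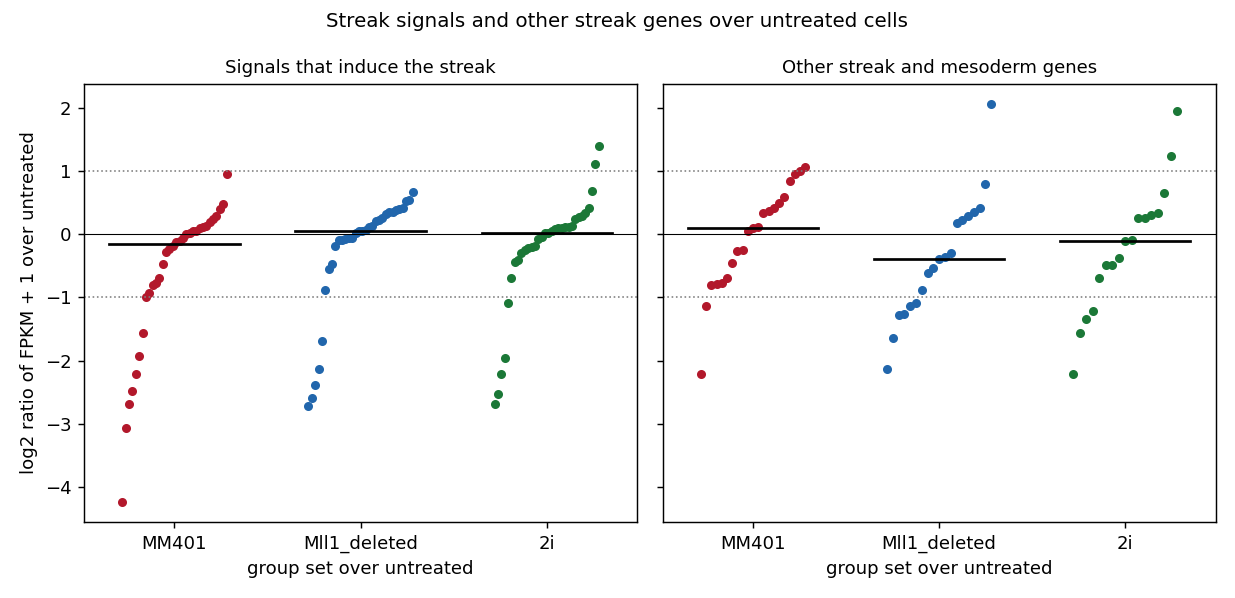
Log2 ratios of FPKM + 1 over untreated cells in MM401, Mll1_deleted and 2i cells. The left panel holds the tested genes of the streak signal list, inhibitors included, and the right panel other streak and mesoderm genes. Each point is a gene, sorted by value, the black bar is the median and dotted lines mark a 2-fold change. Medians lie between −0.40 and 0.11, with a tail of lower genes in every group.

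The 2 LEFTY genes encode NODAL antagonists that NODAL itself induces. Lefty1 was at 9.80 FPKM in MM401 cells, 14.0 FPKM in Mll1_deleted cells and 14.6 FPKM in 2i cells, against 89.0 FPKM in untreated cells. Lefty2 differed from it, at 2.08 FPKM in MM401 cells, 10.2 FPKM in Mll1_deleted cells and 59.1 FPKM in 2i cells, against 57.1 FPKM in untreated cells. Fgf5, an epiblast growth factor gene, was at 0.734, 0.473 and 0.498 FPKM in MM401, Mll1_deleted and 2i cells, against 8.66 FPKM in untreated cells. Of the WNT genes, Axin2 (1.1) and Dkk1 (1.39) were the 2 past the rule upward in 2i cells, the group in which T was highest. Lef1, a WNT effector gene, and Fzd7, a WNT receptor gene, were past it downward there (−1.96 and −1.08).

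Cer1, which encodes a NODAL and BMP antagonist of the anterior visceral endoderm, was, like Lhx1, highest in untreated cells. Its level was 0.0158 FPKM in MM401 cells, 0.0651 FPKM in Mll1_deleted cells and 0.0157 FPKM in 2i cells, against 3.69 [2.79 to 4.59] FPKM in untreated cells. Otx2, whose protein works with LHX1 in the head organiser, was at 5.53, 10.2 and 7.96 FPKM in MM401, Mll1_deleted and 2i cells, against 33.2 FPKM in untreated cells. Of the 7 cofactor genes of LHX1 and GSC, 6 were tested in each comparison. Otx2 was the 1 past the rule in MM401 and in 2i cells, and Foxa2 joined it in Mll1_deleted cells at −1.64. Ldb1, the shared LIM cofactor gene, had log2 ratios of −0.63 in MM401 and 0.53 in 2i cells.

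**Figure D4:**
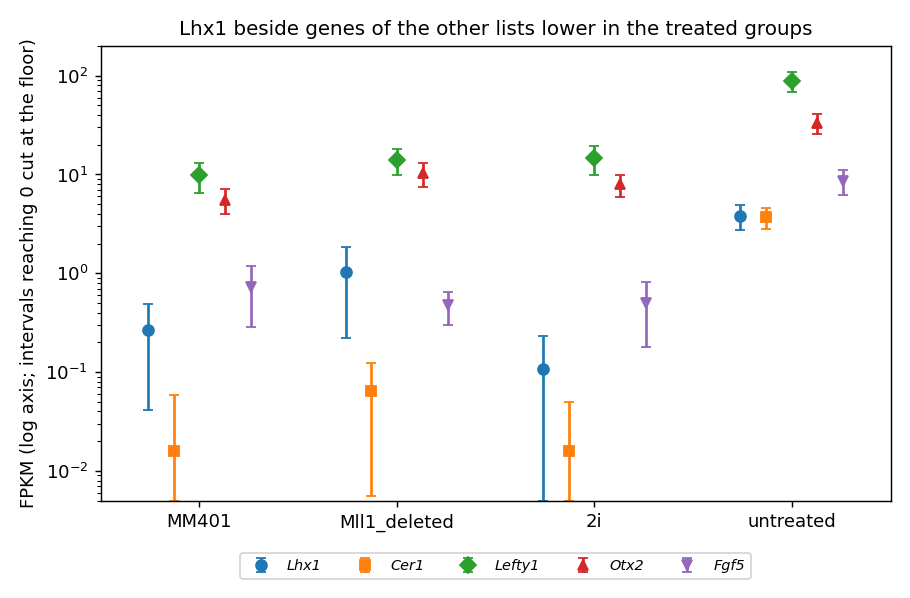
FPKM of Lhx1, Cer1, Lefty1, Otx2 and Fgf5 (points, log axis) with the authors' interval (bars, cut at the bottom of the axis where they reach 0) in MM401, Mll1_deleted, 2i and untreated cells. The genes beside Lhx1 were chosen from the other lists as lower in the treated groups. All 5 are therefore highest in untreated cells, Lhx1 at 3.82 and Cer1 at 3.69 FPKM.

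Lhx1 and Cer1 are also genes of the visceral endoderm, so the primitive endoderm list was set beside them. Of its 15 genes 14 were tested, with 0 higher and 4 lower in MM401 cells, 0 higher and 9 lower in Mll1_deleted cells, and 1 higher and 1 lower in 2i cells. The 14 genes usable in every group summed to 915, 491 and 1629 FPKM in MM401, Mll1_deleted and 2i cells, against 953 FPKM in untreated cells. Ttr, a visceral endoderm transport protein gene, was lower in all 3 (−1.94, −1.84 and −1.21), with overlapping intervals. Most of the summed level came from the matrix genes Sparc, Col4a1 and Lama1, at 876, 467 and 139 FPKM in 2i cells, against 467, 237 and 90.2 FPKM in untreated cells. Feeder fibroblasts also make matrix, and their part in this sum was not tested, so it is not read as a primitive endoderm level. Other genes of the list went both ways in 2i cells. Log2 ratios there were −0.86 for Afp, −0.60 for Amn, −0.43 for Sox7 and −0.07 for Gata6, but 0.64 for Gata4 and 0.31 for Foxa2. Of these, only the intervals of Amn were separate. Amn was also lower in MM401 cells (−1.82), and Sox17, an endoderm transcription factor gene, was higher in 2i cells (1.24). The part of these cells in the Lhx1 value was not tested.

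Other streak and mesoderm genes gave a mixed picture. Of 38 listed 36 were in the table. In MM401 cells 2 were higher and 2 lower of 21 tested, in Mll1_deleted cells 1 was higher and 6 lower of 19, and in 2i cells 2 were higher and 4 lower of 17. The lists share genes, so these counts are not separate from those above. Of the genes lower in Mll1_deleted cells, Foxa2, Sox17 and Gata4 are also on the primitive endoderm list, and Cer1 is on the signal list. Hand1, a helix-loop-helix gene of lateral and extraembryonic mesoderm and of trophoblast, was at 4.83 [2.88 to 6.79] FPKM in Mll1_deleted cells, against 0.392 [0 to 0.923] FPKM in untreated cells. Cdx1, a posterior homeobox gene and known WNT target, was at 7.12 [5.64 to 8.59] FPKM in 2i cells, against 1.09 [0.753 to 1.43] FPKM in untreated cells. Wnt5a was lower in MM401 (−1.13) and Mll1_deleted cells (−1.26), with overlapping intervals.

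Close relatives of the members were measured beside them. Mesp2, the paralog beside Mesp1, was at 2.08 [1.56 to 2.60] FPKM in MM401 cells and 1.27 [0.911 to 1.64] FPKM in Mll1_deleted cells, against 0.712 [0.467 to 0.956] FPKM in untreated cells. Its MM401 interval was above the untreated one, and those of Mesp1 overlapped. Flt4 was at 5.36 FPKM in MM401 cells and 4.68 FPKM in Mll1_deleted cells, against 1.88 FPKM in untreated cells, and Kdr was at 0.540 FPKM in MM401 cells and 0.202 FPKM in Mll1_deleted cells, against 0.181 FPKM in untreated cells. Flt1, the gene of VEGF receptor 1, was highest in 2i cells (6.67 FPKM), against 3.26 FPKM in untreated cells. Among 17 T-box genes, 9 were tested in MM401 cells, and 2 of these were past the rule, Tbx4 and Tbx20 at 1.00 each. In Mll1_deleted and in 2i cells 6 were tested and 0 were past it. Of all loci, 13.1%, 6.68% and 7.08% were past it in MM401, Mll1_deleted and 2i cells. The intervals of Tbx20 overlapped, and in Mll1_deleted cells Tbx20 was at 0.80 and Tbx15 at −0.56. Tbx3, a naive stem cell T-box gene whose locus is joined with Gm16064 and Tbx3os1, was the most abundant of the family at 138, 153 and 174 FPKM in MM401, Mll1_deleted and 2i cells, against 116 FPKM in untreated cells.

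Loci with the most similar profile were found for the 5 members that reached 1 FPKM and 100 counts in some group, by the Euclidean distance over the 3 log2 ratios among 13715 other loci. The 3 ratios share the untreated value. The nearest locus to Lhx1, Gm27247, was 0.16 away, followed by Apob at 0.46 and Irs4 at 0.48. Apob, an apolipoprotein gene of visceral endoderm and liver, was at 0.227, 0.527 and 0.304 FPKM in MM401, Mll1_deleted and 2i cells, against 3.55 FPKM in untreated cells. For the other members the nearest were Scand1, Hic1 and Stx5a for T, Nop10, Rmrp and Ppip5k2 for Eomes, Gm6263, Tor1aip1 and Tmem82 for Gsc, and Rhbdd1, Odf2l and Galnt6os for Tbx6. These names are a few of many. Within a set distance that took in only Gm27247 for Lhx1, T had 178 loci, Eomes 95, Gsc 166 and Tbx6 333. The pseudocount shrinks the ratios of members near 1 FPKM, so a near locus can differ in plain fold. T was at 1.09 FPKM in 2i and 0.472 FPKM in untreated cells, and Scand1 at 70.2 and 48.5 FPKM.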

How the data were processed

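RNA was measured in 8 libraries, 2 in each of 4 groups. The submitters' processing notes list the mm10 build and the tools TopHat2 2.1.1, SAMtools 1.5 and deepTools, with no roles. Libraries were made with Illumina TruSeq after DNase treatment, per the labels' protocols. The FPKM values with lower and upper limits and the estimated counts per locus were deposited by the authors, per the file headers, with both libraries of a group combined in 1 column. The sources used here name no quantifier and no use of strand.

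From these values log2 ratios were computed with Python 3.11.15 and pandas 2.3.3, with a pseudocount of 1 FPKM. Loci without a gene name (11475 of 61535, between 0.324% and 0.405% of counts) and loci whose status was not OK in either group compared (between 44 and 138 per group) were left out. All 9 members had status OK. Distances between profiles used the same ratios. The limits were read as given, and the 2-fold rule is not a test. The calculation was tested on simulated data. File coordinates were counted from 0 and are given from 1. Gene positions are from GENCODE vM21 (GRCm38) and promoters from RefSeq. The members and lists were chosen with earlier results of these data known. In each list the 2 largest ratios in each comparison with untreated cells among loci of at least 1 FPKM and 100 counts were chosen to be named. Other genes, and the shares of separate intervals by level, were added after their values were seen.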

Additional observations from a re-analysis of the deposited data

How the results depend on the processing

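No paired analysis was possible because the tables hold 1 column per group, and for the same reason no library could be left out. Lhx1 stayed past the 2-fold rule in all 3 comparisons with untreated cells under every alternative except a minimum of 5 FPKM, which no value of it reached and which left 0 of the 9 genes in each. With a pseudocount of 0.1 FPKM the members past the rule were 2 in MM401 (Lhx1 and Tbx6), 2 in 2i (T and Lhx1) and 1 between MM401 and Mll1_deleted cells (Lhx1). In estimated counts they were 3 in MM401 (Eomes, Lhx1 and Tbx6), 2 in 2i (T and Lhx1) and 1 between MM401 and Mll1_deleted cells (Tbx6). Evx1 and Kdr were past 2-fold in counts but under 1 FPKM. Over all loci, for MM401, Mll1_deleted and 2i over untreated and for MM401 over Mll1_deleted, the numbers were 2195, 1082, 1134 and 1751. They became 3433, 1768, 1818 and 2755 with the pseudocount of 0.1, 1400, 598, 636 and 1148 with the minimum of 5 FPKM, and 1413, 575, 620 and 1078 where the intervals also had to be separate. Centring on the median of all loci turned the sign of 5 of 36 single-gene ratios, all of them below 0.1 in size and none past the rule. Estimated counts and the smaller pseudocount turned 0 of 36. Levels near 0.1 FPKM rest on few fragments, such as the 10.5 counts of Evx1 in MM401 cells.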
